A study of Rattus norvegicus with 21 samples.

Results

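Forebrain astrocytes of 7-day-old (P7) Sprague Dawley rats were grown for 7 days in 1 of 2 media, and their RNA was set side by side across all genes measured. The serum P7 cultures (3 arrays) were kept from plating in the medium of MD astrocyte cultures with 10% foetal calf serum. The HBEGF P7 cultures (3 arrays) were kept with 5 ng/ml HBEGF, a growth factor of the EGF family, and the labels name no serum for them. Both groups came from the same isolation, immunopanning, in which cells are caught on a dish coated with an antibody, here against the integrin beta-5 chain (ITGB5). Apart from the withdrawn cultures described below, these 6 arrays are all those labelled with either medium at P7, out of 21 in the study. A second pair of groups is used beside them. MD cultures (3 arrays) were made from postnatal day 1 (P1) forebrain by the method of McCarthy and de Vellis, without panning, and grown for 7 days in 10% foetal calf serum. HBEGF P1 cultures (3 arrays) were panned at P1 and grown for 7 days with HBEGF. Levels are also given for panned P7 cells lysed at once (fresh P7 cells), for fresh P1 cells, and for serum P7 cultures that were washed and kept 7 more days with HBEGF (withdrawn P7 cultures), 3 arrays each. Each array is a separate biological replicate by the labels.

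The title and source of the HBEGF P7 arrays say P7 while their characteristics field says p1, and the title was followed. Serum, the rest of the medium and the lack of HBEGF changed together between the 2 P7 groups, so their parts cannot be told apart. What the MD medium held beyond serum is not given in the sources used here. These are bulk cultures, in which fewer cells of a type and less RNA per cell cannot be told apart either.

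Astrocytes in the brain meet almost no serum protein, because the blood-brain barrier keeps plasma out. HBEGF binds the EGF receptor (EGFR), which signals through the MAPK cascade, and is known to keep panned astrocytes alive without serum. Serum brings lysophospholipids, growth factors of the PDGF and TGF-beta families, steroid and thyroid hormones and lipids. The lysophospholipids are known to drive actin assembly, which lets the cofactor MRTF join serum response factor (SRF) at genes of the contractile cytoskeleton.

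Values are log2 of the authors' array intensities, for 1 probe set per gene, and a difference of 1 is a 2-fold change. A gene is said to have risen or fallen in serum where limma gave a Benjamini-Hochberg adjusted p under 0.05 and the mean of the serum arrays differed from that of the HBEGF arrays by at least 1. The median of all log2 values was 7.11, so levels near 4 or 5 lie at the low end of the scale, where differences are compressed. The 6 arrays were not equally close to their groups. Spearman correlations were 0.994 between serum arrays 1 and 2, but 0.974 and 0.979 between these and serum array 3. Among the HBEGF arrays they were 0.974, 0.977 and 0.963, lowest between 2 and 3, and between the groups they ran from 0.93 to 0.962. Serum array 3 and HBEGF array 2 stood apart most, with a spread of 0.39 and 0.42 around their group means over all genes, and HBEGF array 3 followed with 0.38. Results that rest on 1 of these arrays are given with and without it, and the counts that lead each gene group were also run without serum array 3 and HBEGF array 2 together, an alternative chosen after the data were seen.

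Of 14217 genes, 1322 changed between the media (9.30%). Serum cultures had 686 genes higher (4.83%) and 636 lower (4.47%). These shares are the background for each count of rises and falls in the gene lists below. Among the rises were genes of the actin cytoskeleton, collagens, the heat shock protein Hspb1 and targets of the glucocorticoid receptor. Among the falls were Egfr, receptors for transmitters and peptides, and genes of neural progenitors. Gfap, Aqp4 and Aldh1l1, which define astrocytes, were not called. The 3 serum arrays all lay above or all below the 3 HBEGF arrays in 1227 of the 1322 genes, and in 37.9% of all genes (17.8% above and 20.2% below). Without HBEGF array 2 the rises numbered 548, and without HBEGF array 3 they numbered 817. Without serum array 3 and HBEGF array 2 there were 558 rises and 642 falls. Fitted on the 6 arrays alone, with the spread taken from these arrays and fewer degrees of freedom, the counts were 400 and 362. Of the genes described below, Bcas1, Cdkn2b, Cldn10, Cnn1, Col3a1, Crabp2, Esm1, Etv1, Fhl2, Filip1l, Foxc1, Igfbp3, Igfbp5, Lcat, Lcn2, Lum, Mertk, Myrf, Ntsr2, Pdgfrb, Slc6a9, Slc7a10, Spry2, Thbs4 and Zic1 lost their call in that fit. So did Frzb, S100a1, S100a4 and Sfrp4 of the closing section.

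Array values are given below in the order of replicates 1, 2 and 3. For every called gene whose 6 values are given, the serum and HBEGF arrays did not overlap, except for Lcn2 and Igfbp3.

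The gene with the largest rise was Tnn, which encodes tenascin-N, a matrix glycoprotein. Tnn stood at 12.60, 11.69 and 10.61 in the 3 serum arrays, against 4.42, 4.40 and 4.22 in the HBEGF arrays. The change was 7.29 ± 0.34 (SE, adjusted p = 7.51e-10), from a level at the bottom of the scale in every HBEGF array. Hspb1, the small heat shock protein HSP27 that binds actin and protects against stress, was at 14.53, 14.29 and 14.06 in serum and 9.48, 7.46 and 10.40 in HBEGF arrays (5.18 ± 0.55, adjusted p = 8.99e-06). Its serum values were close together while the HBEGF values spread over almost 3 log2 units, with array 2 the lowest. The surface glycoprotein Thy1, found on neurons and fibroblasts, had little spread in either group, with 10.80, 11.12 and 10.49 in serum against 6.45, 6.19 and 6.27 in HBEGF cultures (4.50 ± 0.20, adjusted p = 3.96e-10). Sgk1, the serum- and glucocorticoid-induced kinase, was at 12.52, 12.61 and 13.13 in serum and 8.28, 8.70 and 9.24 in HBEGF arrays (4.02 ± 0.29, adjusted p = 2.09e-07).

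Thrsp, a regulator of fat synthesis that answers to thyroid hormone, was at 11.47, 12.06 and 13.09 in serum arrays and at 8.05, 5.9999 and 8.51 in HBEGF arrays, a change of 4.69. Krt19, a keratin of simple epithelia, was at 9.24, 8.52 and 11.22 in serum and near the bottom of the scale in HBEGF cultures (5.09, 4.59 and 4.92, change 4.79). Ccn3, a matricellular protein of the CCN family, changed by 4.37 with wide spread in both groups (10.61, 11.39 and 13.18 in serum and 8.60, 5.51 and 7.96 in HBEGF arrays). The secreted protease Htra1 (3.97), the guanine deaminase Gda (4.33), the angiotensin receptor Agtr1a (4.01), the protein C receptor Procr (3.97) and the methyltransferase Inmt (4.03) completed the 12 largest rises. Their adjusted p values ran from 3.19e-06 for Procr to 0.00131 for Ccn3, leaving aside the genes given above. Inmt was highest in serum array 3 (8.28, 9.03 and 11.25 in serum, 5.49, 5.54 and 5.44 in HBEGF arrays), the other serum values lying 2 to 3 log2 units lower.

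**Figure D1:**
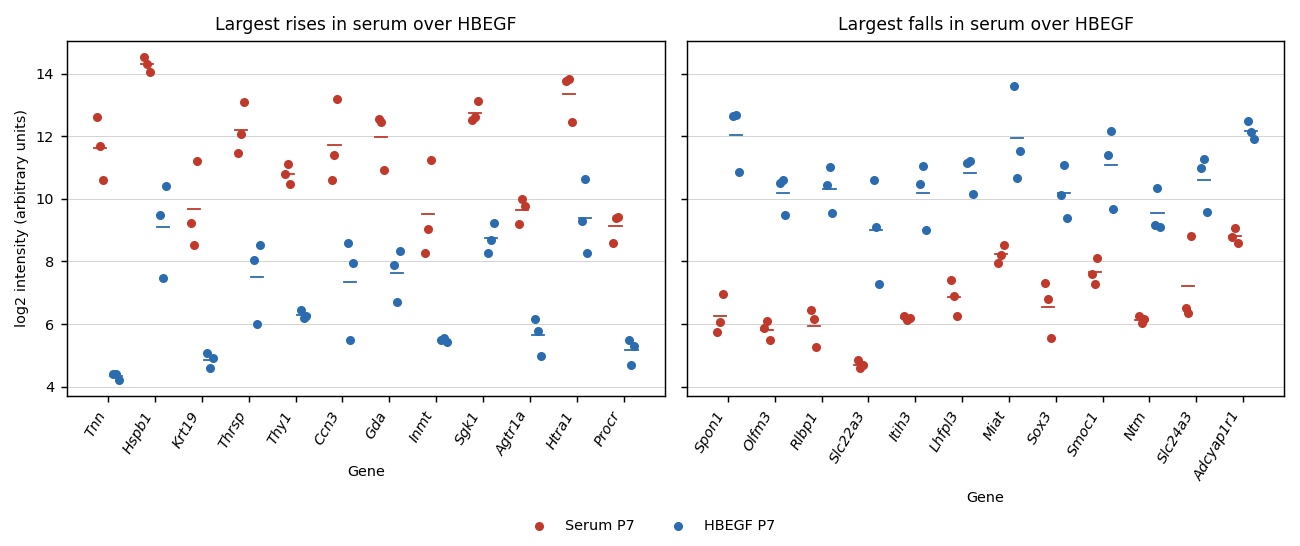
Log2 intensity (arbitrary units) of the 12 genes with the largest rise and the 12 with the largest fall among genes whose arrays do not overlap, 1 point per array, with a line at each group's mean. Serum P7 arrays (red) stand left of HBEGF P7 arrays (blue), and the groups are apart for every gene shown by construction.

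Spon1 fell furthest. It encodes F-spondin, a secreted adhesion protein of the developing nervous system, and stood at 5.74, 6.07 and 6.97 in serum against 12.63, 12.68 and 10.85 in HBEGF arrays. That is a change of -5.79 ± 0.49 (adjusted p = 1.03e-06), or 55.4-fold more in HBEGF cultures. Olfm3, an olfactomedin secreted by neural cells, was at 5.88, 6.09 and 5.50 in serum and 10.52, 10.60 and 9.47 in HBEGF arrays (-4.38 ± 0.27, adjusted p = 3.91e-08). Rlbp1, the retinaldehyde-binding protein of Müller glia, was at 6.44, 6.16 and 5.26 in serum and 10.43, 11.002 and 9.53 in HBEGF arrays (-4.37, adjusted p = 5.89e-07). In all 3 genes HBEGF array 3 was the lowest of its group and still above every serum array.

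The organic cation transporter Slc22a3 was near the bottom of the scale in serum (4.85, 4.60 and 4.69) and spread widely in HBEGF cultures (10.61, 9.11 and 7.28, change -4.29). Adcyap1r1, the receptor of the neuropeptide PACAP, was at 8.78, 9.06 and 8.59 in serum against 12.50, 12.13 and 11.90 in HBEGF arrays (-3.36). Sox3, a transcription factor of neural progenitors, was at 7.33, 6.80 and 5.55 in serum and 10.13, 11.08 and 9.37 in HBEGF arrays (-3.64). The other large falls were the hyaluronan-binding inter-alpha-trypsin inhibitor chain Itih3 (-3.98), Lhfpl3 (-3.98), the long non-coding RNA Miat (-3.71), the secreted matricellular protein Smoc1 (-3.41), the neural adhesion molecule Ntm (-3.39) and the sodium-calcium exchanger Slc24a3 (-3.38). Adjusted p for these ran from 7.33e-06 to 0.00084. Every rise and fall among these largest changes stayed called with any 1 of the 6 arrays left out. Their choice as the largest calls with arrays that do not overlap favours that outcome.

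Cytoskeletal targets of SRF and its cofactor MRTF make the stress fibres of contractile cells, among them smooth muscle actins, calponins and tropomyosins. Of 24 measured, 13 rose and 0 fell in serum, against 4.83% and 4.47% of all genes, and the median change was 1.25 against -0.0033 over all genes. At an unadjusted p of limma under 0.05, 17 were higher and 0 lower. The count was 12 to 14 with any 1 array left out, 12 without serum array 3 and HBEGF array 2 together, and 8 in the fit on the 6 arrays alone.

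Cnn1, the calponin of smooth muscle, was at 11.81, 11.94 and 9.70 in serum against 7.12, 6.25 and 9.14 in HBEGF arrays, a change of 3.64 ± 0.66 (adjusted p = 0.000907). Serum array 3 was its lowest serum value and HBEGF array 3 its highest HBEGF value, so the groups came within 0.6 of each other. Tpm2, a tropomyosin that stabilises actin filaments, was at 12.86, 12.96 and 12.79 in serum and 11.02, 10.05 and 9.82 in HBEGF arrays (2.57 ± 0.36, adjusted p = 0.000104). All serum values of Tpm2 lay close together, and HBEGF array 1 was the highest of its group. Acta2, smooth muscle alpha-actin, was at 10.39, 10.24 and 9.76 in serum and 7.78, 8.13 and 8.65 in HBEGF arrays (1.94, adjusted p = 0.000389). Actg2, smooth muscle gamma-actin, was at 8.82, 8.93 and 7.90 in serum and 6.73, 4.92 and 5.07 in HBEGF arrays (2.97, adjusted p = 3.27e-05). The actin genes are nearly identical in sequence, and their probes may not tell them fully apart. The actin-nucleating Lmod1 (2.22), the muscle filament gene Des (1.78) and the LIM-domain gene Fhl2 (2.50) also rose. Tagln, an early smooth muscle gene, was already high in both media, at 14.48, 14.44 and 13.69 in serum and 13.90, 12.14 and 14.24 in HBEGF arrays. It did not pass the test (0.78, adjusted p = 0.178). Without HBEGF array 3 it did (1.18, adjusted p = 0.0394), while without HBEGF array 2 the change was 0.13 (adjusted p = 0.781). Srf itself was not called (-0.25).

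The promoters of the SRF list are shown because SRF binds a short A/T-rich element, the CArG box. RefSeq windows of 300 bases (250 before and 50 after the annotated start, assembly GRCr8) were at hand for 21 of the 24 genes and for 11 of the 13 that rose. Only exact matches to CCWWWWWWGG, where W is A or T, were counted as a CArG box, on both strands. Near matches, such as ccctatatgg and ccttgtttgg in the Acta2 window, were left out. An exact CArG box was in 2 of these 11, Fhl2 and Cnn2, and in 3 of the 10 that were not called, Actg1, Fhl1 and Srf. It was in 1.64% of all 33469 promoter windows of this length. The AP-1 motif TGANTCA was in 2 of the 11 windows (Actg2 and Filip1l) and in 0 of the 10 of genes not called, against 7.33% of all windows. The TEAD motif GGAATG was in 4 of the 11 and in 4 of the 10 of genes not called, against 14.2% of all. Each motif was counted on both strands and on its own, whether or not it overlapped another. A match is a run of letters, not a shown binding site. The Fhl2 window lies at chr9:52954491-52954790 and the Cnn2 window at chr7:10370263-10370562, both on the minus strand and written 5′ to 3′ along the gene. Capitals mark the CArG box, which starts at base -95 from the annotated start in Fhl2 and at -71 in Cnn2.
Fhl2: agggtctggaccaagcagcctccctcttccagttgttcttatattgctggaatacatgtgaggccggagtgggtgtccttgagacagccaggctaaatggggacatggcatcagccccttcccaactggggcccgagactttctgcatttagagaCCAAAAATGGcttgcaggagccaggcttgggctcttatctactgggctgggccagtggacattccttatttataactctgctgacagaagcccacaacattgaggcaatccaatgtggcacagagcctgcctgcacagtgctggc
Cnn2: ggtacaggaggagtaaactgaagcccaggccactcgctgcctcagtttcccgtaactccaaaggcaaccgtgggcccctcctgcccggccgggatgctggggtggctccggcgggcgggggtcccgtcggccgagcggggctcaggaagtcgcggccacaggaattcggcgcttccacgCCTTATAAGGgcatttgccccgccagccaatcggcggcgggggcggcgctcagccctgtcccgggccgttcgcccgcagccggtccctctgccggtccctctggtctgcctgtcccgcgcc
Fhl2 was at 10.91, 11.59 and 12.72 in serum against 9.42, 8.04 and 10.26 in HBEGF arrays (2.50 ± 0.48, adjusted p = 0.00133). Cnn2, a calponin of non-muscle cells, rose by 1.26.

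**Figure D2:**
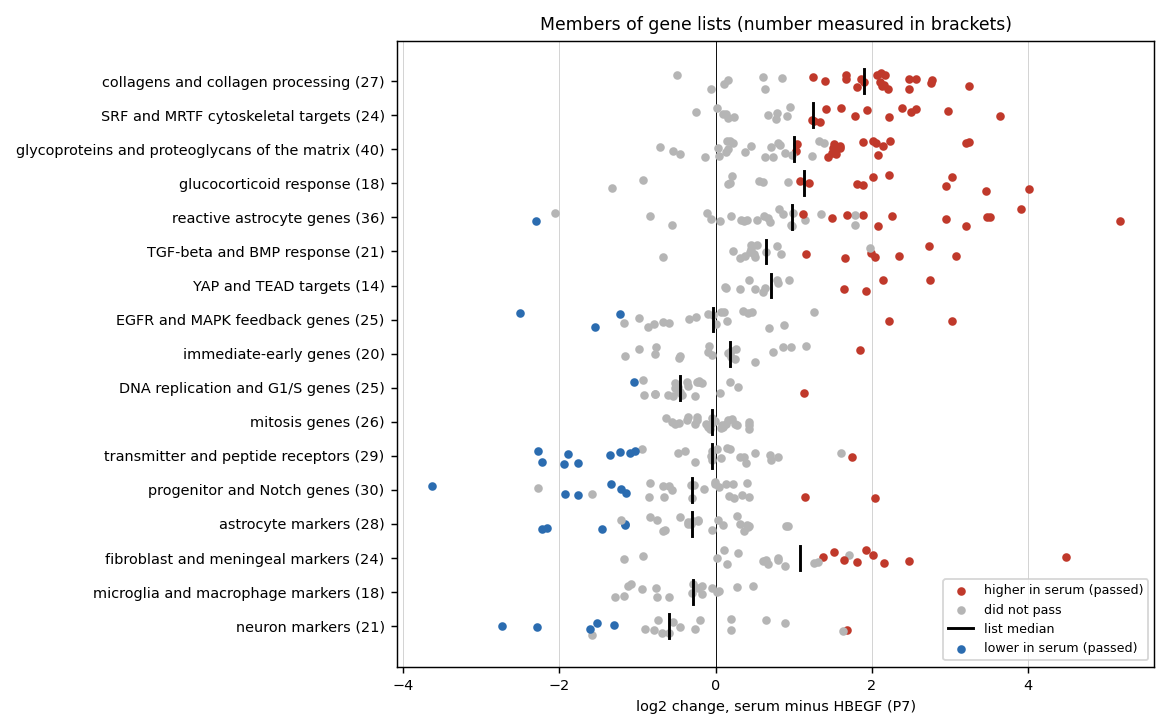
Log2 change, serum minus HBEGF P7 cultures, for the measured members of 17 gene lists (rows, number of genes in brackets), 1 point a gene: red rose, blue fell, grey did not pass the test. The black line is the list median, which lies at 1.90 for the collagen list and 1.25 for the SRF list, and at -0.05 for the mitosis list.

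Collagens and the enzymes that hydroxylate, trim and cross-link them were the list with the highest share of rises. Of 27 measured, 20 rose and 0 fell, with a median change of 1.90 (23 higher and 1 lower at an unadjusted p of limma under 0.05). The count stayed at 18 or more with any 1 array left out and was 17 without serum array 3 and HBEGF array 2. Col1a1, a chain of fibrillar type I collagen, was at 12.64, 13.15 and 12.98 in serum against 11.01, 9.72 and 10.62 in HBEGF arrays, a change of 2.47 ± 0.40 (adjusted p = 0.00038). Col4a2 of the basement membrane was at 10.64, 11.02 and 11.60 in serum and 8.72, 8.20 and 8.64 in HBEGF arrays (2.57 ± 0.22, adjusted p = 1.34e-06). Col8a1, a network collagen, was at 12.13, 12.52 and 11.57 in serum and 9.26, 8.89 and 8.32 in HBEGF arrays (3.25, adjusted p = 8.22e-05). Serum array 3 was the highest of the 6 for Col4a2 and the lowest serum array for Col8a1. HBEGF cultures already held type I collagen RNA above the median of the array, most of it in arrays 1 and 3. The prolyl hydroxylase P4ha2, which collagen folding needs, rose by 2.77 (adjusted p = 3.31e-06), and the cross-linking oxidase Loxl2 by 2.76 (adjusted p = 0.000248).

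Among 40 glycoproteins and proteoglycans of the matrix, 17 rose and 0 fell (median 1.01; 24 higher and 1 lower at an unadjusted p of limma under 0.05). This count rested in part on HBEGF array 2, without which it was 9; it was 10 without that array and serum array 3 together, and 7 in the fit on the 6 arrays alone. Fbln5, which organises elastic fibres, was at 11.22, 11.20 and 10.05 in serum and 7.87, 7.08 and 7.92 in HBEGF arrays (3.20 ± 0.32, adjusted p = 5.56e-06). Thbs2, an antiangiogenic thrombospondin, was at 10.52, 10.55 and 9.03 in serum and 7.49, 6.49 and 6.38 in HBEGF arrays (3.25, adjusted p = 5.07e-05). Fn1, fibronectin, was at 13.57, 13.61 and 13.68 in serum and 12.66, 11.57 and 12.12 in HBEGF arrays (1.505, adjusted p = 0.000272). Serum array 3 was the lowest serum array for Fbln5 and Thbs2, yet above all HBEGF arrays, and HBEGF array 2 was the lowest of all for Fn1. Fbn1 of the microfibrils (2.24), the small proteoglycan Bgn (2.02) and the hyaluronan receptor Cd44 (2.08) rose as well. Of 24 matrix proteases and inhibitors 6 rose and 1 fell, with 3 rises without HBEGF array 2 and 2 falls without HBEGF array 3. The aggrecanases Adamts1 (2.42) and Adamts4 (1.71) belonged to the rises.

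Markers of fibroblasts and meninges moved with these matrix genes. Of 24 such markers 9 rose and 0 fell in serum (11 and 0 at an unadjusted p of limma under 0.05). Their summed intensity was 104725, 124622 and 214285 in serum arrays 1 to 3, against 67575, 44580 and 90402 in the HBEGF arrays. Their mean log2 overlapped between the groups, at 9.86, 10.34 and 12.08 in serum and 9.99, 8.41 and 10.54 in HBEGF arrays. The list shares Col1a1, Col1a2, Col3a1, Lum and Bgn with the matrix lists. Markers outside the matrix did not follow one pattern. Of the 9 rises 4 were such markers, Thy1 (4.50), the retinoic acid binder Crabp2 (1.93), the transcription factor Foxc1 (1.64) and the PDGF receptor Pdgfrb (1.37). Foxc1 lost its call without HBEGF array 2 (1.31, adjusted p = 0.0519) or serum array 3 (1.13, adjusted p = 0.0538), and Crabp2 without either of these or serum array 2. Another 3, chosen after their values were seen, were not called. Ptgds, the prostaglandin D synthase of the arachnoid, was at 6.26, 8.96 and 14.25 in serum against 11.53, 6.83 and 13.90 in HBEGF arrays. Gjb2, a connexin of the meninges, was at 6.98, 7.70 and 13.59 in serum and 10.76, 9.57 and 11.47 in HBEGF arrays. Igf2 was at 9.15, 9.54 and 13.69 in serum and 11.17, 7.88 and 12.89 in HBEGF arrays. These 3 markers were highest in serum array 3, while serum arrays 1 and 2 lay below HBEGF arrays 1 and 3. Without serum array 3 and HBEGF array 2, 4 markers rose and 5 fell, and without serum array 3 alone 1 fell. The collagen count was 17 without both arrays and 19 without serum array 3 alone. The part of meningeal or fibroblast cells in the matrix changes was not tested beyond these values.

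TGF-beta and BMP signalling, a strong inducer of matrix genes, had 7 of 21 genes higher and 0 lower (median 0.64; 12 higher and 1 lower at an unadjusted p of limma under 0.05). The ligand Tgfb3 was at 10.58, 9.76 and 9.26 in serum against 7.31, 7.27 and 6.83 in HBEGF arrays (2.74 ± 0.26, adjusted p = 2.77e-06), and the ligand Tgfb2 rose by 1.99 (adjusted p = 8.17e-05). Ltbp2, of the family of latent TGF-beta binding proteins, rose by 3.08 (adjusted p = 9.98e-06), and the decoy receptor Bambi by 2.04 (adjusted p = 0.000146). Of 14 targets of YAP and TEAD, which respond to cell spreading, 4 rose and 0 fell (10 and 0 at an unadjusted p of limma under 0.05). Ccn2, the connective tissue growth factor, was at 13.87, 13.86 and 13.54 in serum and 11.46, 11.83 and 11.55 in HBEGF arrays (2.14 ± 0.32, adjusted p = 0.000218). Among 23 integrins and focal adhesion genes 4 rose and 0 fell (12 and 1 at an unadjusted p of limma under 0.05). The collagen receptor chains Itga1 (3.25, adjusted p = 9.58e-05) and Itga11 (1.97, adjusted p = 0.000478) and the caveolar protein Cav1 (1.36, adjusted p = 0.00439) were among them. Itgb5, the antigen used for panning, was at 11.49, 11.49 and 10.25 in serum and 11.20, 11.59 and 11.13 in HBEGF arrays and was not called (-0.22, adjusted p = 0.665).

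Target genes of the glucocorticoid receptor rose in 10 of 18 cases and fell in 0 (median 1.14; 11 higher and 1 lower at an unadjusted p of limma under 0.05), and in 9 or 10 with any 1 array left out. The falls numbered 1 without HBEGF array 2 or serum array 3, and 2 without both. Fkbp5, a chaperone of the receptor and one of its classic targets, was at 11.99, 11.97 and 11.83 in serum against 8.50, 9.40 and 9.03 in HBEGF arrays (2.95 ± 0.24, adjusted p = 7.87e-07). Tsc22d3, known as GILZ, was at 12.24, 12.37 and 11.79 in serum and 10.14, 10.41 and 9.79 in HBEGF arrays (2.02 ± 0.23, adjusted p = 1.72e-05). In both genes the 3 serum arrays lay close together and above all HBEGF arrays. Sult1a1, a sulfotransferase, rose by 3.46 (adjusted p = 0.000186), Ddit4, an inhibitor of mTOR, by 1.81 (adjusted p = 0.00211) and Klf9 by 1.20 (adjusted p = 0.000402). Sgk1 and the MAPK phosphatase Dusp1 are in this list too.

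Genes known from reactive astrocytes rose in 12 of 36 cases, and 1 fell (median 0.97). With 1 array left out the rises numbered 9 to 17 and the falls 2 without HBEGF array 2 or 3; without serum array 3 and HBEGF array 2 together there were 10 rises and 4 falls, and the fit on the 6 arrays alone gave 7 rises. After Hspb1 the largest was Spp1, the secreted phosphoprotein osteopontin, at 12.97, 13.63 and 11.20 in serum against 8.99, 8.25 and 8.82 in HBEGF arrays (3.91 ± 0.49, adjusted p = 3.92e-05). Serpina3n, a protease inhibitor of the acute phase, was at 9.06, 9.24 and 6.44 in serum and at the bottom of the scale in HBEGF arrays (4.82, 4.79 and 4.59, change 3.51, adjusted p = 0.00198). Srgn, a proteoglycan of secretory granules, was at 10.69, 11.07 and 12.82 in serum and 8.11, 6.89 and 9.14 in HBEGF arrays (3.48, adjusted p = 0.000389). Serum array 3 was the lowest serum array for Spp1 and Serpina3n and the highest for Srgn. Lcn2, lipocalin-2, overlapped between the groups, at 9.90, 9.67 and 8.48 in serum and 7.40, 5.57 and 9.44 in HBEGF arrays (1.89, adjusted p = 0.0441), and lost its call without HBEGF array 1 or 2 or serum array 1 or 2 (adjusted p up to 0.223). The intermediate filament genes Gfap and Vim, which also mark reactivity, differed by 0.40 (adjusted p = 0.349) and 0.36 (adjusted p = 0.0309, under the fold limit).

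Serum cultures held less RNA of the receptor for the growth factor they lacked. Egfr was at 9.32, 9.76 and 9.89 in serum against 12.58, 12.42 and 11.51 in HBEGF arrays, a change of -2.51 ± 0.26 (adjusted p = 7.24e-06), or 5.70-fold more in HBEGF cultures. The ligand gene Hbegf did not pass the test, at 8.93, 8.78 and 7.17 in serum and 7.52, 7.58 and 8.36 in HBEGF arrays (0.47, adjusted p = 0.587). Of 25 genes of the EGFR family and its MAPK feedback, 2 rose and 3 fell. The rises were Dusp1, a MAPK phosphatase, at 10.50, 10.45 and 10.94 in serum and 7.50, 6.94 and 8.38 in HBEGF arrays (3.02, adjusted p = 2.11e-05), and Errfi1, an inhibitor of the EGFR kinase, at 11.95, 11.97 and 12.94 in serum and 10.14, 9.64 and 10.42 in HBEGF arrays (2.22, adjusted p = 3.37e-05). Both are also known targets of glucocorticoids, and HBEGF array 3 was the highest HBEGF array for both. The falls after Egfr, in the feedback inhibitor Spry2 (-1.54, adjusted p = 0.0119) and the ETS factor Etv1 (-1.22, adjusted p = 0.00244), were lost without HBEGF array 2 or serum array 3, and 5 genes fell without HBEGF array 3. Without serum array 3 and HBEGF array 2 together 5 rose and 1 fell. Of 20 immediate-early genes 1 rose, Ier3 (1.85, adjusted p = 0.00211), and 0 fell (5 higher and 4 lower at an unadjusted p of limma under 0.05). With 1 array left out 1 or 2 rose and up to 3 fell, 3 without HBEGF array 3, and without serum array 3 and HBEGF array 2 together 0 rose.

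Serum is a classic mitogen, and HBEGF drives division of astrocytes too. With all 6 arrays none of 26 mitosis genes was called (median -0.05, and 0 in either direction at an unadjusted p of limma under 0.05). Mki67, present in dividing cells, was at 10.49, 10.47 and 10.25 in serum and 9.85, 11.99 and 10.92 in HBEGF arrays (-0.52, adjusted p = 0.335). Top2a, the DNA-untangling enzyme of dividing cells, was at 10.68, 10.88 and 10.69 in serum and 10.09, 12.05 and 11.54 in HBEGF arrays (-0.47, adjusted p = 0.382). HBEGF array 1 was the lowest of the 6 for both genes and array 2 the highest. Without HBEGF array 1, 4 mitosis genes fell, with Mki67 at -1.05 (adjusted p = 0.0192) and Top2a at -1.04 (adjusted p = 0.0143). Without HBEGF array 2 Mki67 was at 0.02 (adjusted p = 0.975) and Top2a at -0.06 (adjusted p = 0.922). Of 25 genes of DNA replication and G1/S entry 1 rose and 1 fell (median -0.45); the falls numbered 6 without HBEGF array 1, 2 without serum array 1 and 0 without HBEGF array 2, and the rises 0 without HBEGF array 1 and 2 without HBEGF array 2. Among 15 cell cycle inhibitors and p53 targets 4 rose and 0 fell (6 higher and 1 lower at an unadjusted p of limma under 0.05), with 2 rises without HBEGF array 1 or serum array 2 and 1 fall without serum array 3. The kinase inhibitor Cdkn2b was at 7.95, 8.43 and 6.60 in serum and 5.91, 6.45 and 6.24 in HBEGF arrays (1.46, adjusted p = 0.00304).

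RNAs of Gfap, Aqp4 and Aldh1l1, which define astrocytes, were abundant in both media. Gfap, the glial filament protein, was at 14.76, 14.68 and 14.62 in serum and 14.59, 13.64 and 14.64 in HBEGF arrays. Aqp4, the water channel of astrocyte endfeet, was at 14.15, 14.20 and 13.99 in serum and 14.31, 13.02 and 14.19 in HBEGF arrays (0.27, adjusted p = 0.46). Aldh1l1, a folate enzyme, was at 11.80, 11.17 and 11.36 in serum and 11.25, 10.42 and 11.38 in HBEGF arrays (0.43, adjusted p = 0.235). For all 3 genes HBEGF array 2 was the lowest of the 6. The glutamate transporters Slc1a3 (-0.45, adjusted p = 0.126) and Slc1a2 (0.32, adjusted p = 0.276) and the gap junction gene Gja1 (0.04, adjusted p = 0.834) were not called. Slc1a2 lay near the median of all log2 values (7.11) in both media. It was at 7.53, 7.47 and 7.16 in serum and 7.53, 7.19 and 6.49 in HBEGF arrays.

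Of 28 astrocyte markers 0 rose and 5 fell (median -0.30; 4 higher and 8 lower at an unadjusted p of limma under 0.05), and 1 rose without HBEGF array 1 or without any 1 serum array. Aldoc (0.91, adjusted p = 0.00139) and Glul (0.93, adjusted p = 0.00178) were higher in serum, just under the fold limit. Apoe, the main lipid carrier that astrocytes secrete, was at 13.11, 13.30 and 13.63 in serum against 14.92, 14.70 and 14.78 in HBEGF arrays (-1.46 ± 0.12, adjusted p = 1.01e-06). The calcium-binding S100b was at 13.55, 13.58 and 12.91 in serum and 14.61, 14.45 and 14.47 in HBEGF arrays (-1.16, adjusted p = 0.000567; -0.94 without serum array 3, under the fold limit). The claudin Cldn10 (-2.16, adjusted p = 0.00413), the neurotensin receptor Ntsr2 (-2.23, lost without HBEGF array 1 or 3) and the serine carrier Slc7a10 (-1.16, lost without HBEGF array 2) were the other falls. Among 17 genes of lipoproteins and cholesterol export 3 rose and 4 fell. Apoc1, an apolipoprotein, was at 6.21, 5.90 and 6.36 in serum and 9.80, 8.53 and 8.35 in HBEGF arrays (-2.74 ± 0.33, adjusted p = 2.69e-05), while the acyltransferase Lcat rose by 2.34 (adjusted p = 0.000511). The falls in this list numbered 2 without HBEGF array 1 or serum array 1, and the rises 1 without HBEGF array 2.

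Receptors through which astrocytes sense transmitters and peptides fell in 9 of 29 cases and rose in 1, while the median of the list was -0.05 (7 higher and 9 lower at an unadjusted p of limma under 0.05). Among all genes 4.47% fell and 4.83% rose. The falls numbered 3 without HBEGF array 1 and 5 without serum array 3, and the rises 2 without HBEGF array 1 or 3 or serum array 1. Adra2a, an alpha-2 adrenergic receptor, was at 8.17, 8.72 and 9.47 in serum and 10.95, 10.04 and 11.05 in HBEGF arrays (-1.89 ± 0.39, adjusted p = 0.00251). Adra1b, an alpha-1 adrenergic receptor, went the other way, at 7.54, 7.70 and 8.38 in serum and 6.40, 6.12 and 5.86 in HBEGF arrays (1.75, adjusted p = 0.00298). Gabrg1, a subunit of the GABA-A receptor, was at 6.23, 6.21 and 5.17 in serum and 7.22, 7.74 and 7.92 in HBEGF arrays (-1.76, adjusted p = 0.00131). Serum array 3 was the serum array nearest the HBEGF level for Adra2a and the farthest from it for Adra1b and Gabrg1. The PACAP receptor Adcyap1r1, described above, is not in this list. Of 24 genes for glutamate, GABA and ion transport 2 rose and 2 fell, with 1 fall without HBEGF array 2 and 4 without HBEGF array 3. They were the potassium channel Kcnk1 (1.66), the glutamine carrier Slc38a2 (1.63), the glycine transporter Slc6a9 (-2.05) and Slc7a10.

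Genes of neural progenitors and Notch signalling had 6 of 30 lower and 2 higher (median -0.30). After Sox3 came the Notch ligand Dll1, at 7.23, 7.36 and 6.86 in serum against 9.25, 9.15 and 8.34 in HBEGF arrays (-1.77 ± 0.35, adjusted p = 0.002). The zinc finger factor Zic1 rose, at 8.22, 8.95 and 9.58 in serum and 6.21, 6.69 and 7.72 in HBEGF arrays (2.05, adjusted p = 0.00213). HBEGF array 3 was the HBEGF array nearest the serum level for both. Neuron markers had 5 of 21 lower and 1 higher, with 8 lower without HBEGF array 2 and 3 higher without HBEGF array 3. The RNA-binding Elavl4 was at 6.55, 6.46 and 7.64 in serum and 9.56, 8.72 and 10.57 in HBEGF arrays (-2.73, adjusted p = 0.00229), and the growth cone protein Gap43 at 8.04, 8.66 and 8.29 in serum and 9.99, 11.63 and 10.24 in HBEGF arrays (-2.29, adjusted p = 0.000232). The vesicular glutamate transporter Slc17a6 was the marker that rose (1.68, adjusted p = 0.000444). Tubb3, the tubulin of young neurons, was at 6.27, 6.54 and 8.32 in serum and 6.83, 5.51 and 10.85 in HBEGF arrays, high in HBEGF array 3. Among 15 secreted factors that act on synapses 4 rose and 2 fell, with 1 fall without HBEGF array 1 or serum array 3. Wnt5a rose by 2.11 (adjusted p = 1.79e-05), and the thrombospondin Thbs4 fell by 2.55 (adjusted p = 0.00228), opposite to Thbs2.

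In metabolism, 5 of 22 genes of fatty acid synthesis and desaturation rose and 0 fell (7 and 0 at an unadjusted p of limma under 0.05), although the median was 0.12. Beside Thrsp, the acyl-CoA synthetase Acsl5 was at 10.998, 11.05 and 10.79 in serum and 9.11, 9.81 and 9.22 in HBEGF arrays (1.57, adjusted p = 8.22e-05), and the acetyl-CoA synthetase Acss2 at 12.29, 12.26 and 12.30 in serum and 11.42, 11.12 and 11.01 in HBEGF arrays (1.10, adjusted p = 8.1e-06). Both were already well above the median of the array in HBEGF cultures. Of 18 genes that answer to retinoic acid or thyroid hormone 5 rose and 0 fell (9 and 1 at an unadjusted p of limma under 0.05), with 1 fall without HBEGF array 2. The retinaldehyde reductase Dhrs3 was at 9.09, 9.69 and 12.20 in serum and 7.01, 6.20 and 7.26 in HBEGF arrays (3.50, adjusted p = 0.000826), highest in serum array 3. Cholesterol synthesis had 1 of 19 higher, Ebp (1.22), and 0 lower (3 and 2 at an unadjusted p of limma under 0.05), with 2 higher without HBEGF array 1. In glycolysis and lactate transport 3 of 27 rose and 0 fell (9 and 5 at an unadjusted p of limma under 0.05), with 1 rise without HBEGF array 2 and 1 fall without HBEGF array 2 or 3 or serum array 3. In total this list lay near the 9.30% called among all genes. The glucose transporter Slc2a3 rose by 2.35 (adjusted p = 1.51e-06). Among 14 genes of insulin-like growth factors and their binding proteins 4 rose and 1 fell. Igfbp3 was at 12.75, 12.41 and 11.38 in serum and 9.62, 11.49 and 9.38 in HBEGF arrays (2.01, adjusted p = 0.00433), with HBEGF array 2 above serum array 3. The fall, in Igfbp5 (-1.99), was lost without HBEGF array 1 or 3 or serum array 1 or 2.

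Stress, uptake and immune genes made up the other lists. Among all genes 4.83% rose and 4.47% fell. The antioxidant, chemokine and interferon lists lay near the total share of 9.30%. Of 25 genes of serine, folate and amino acid stress 2 rose and 3 fell, with 1 fall without HBEGF array 2 or serum array 3. The cystathionine synthase Cbs rose by 1.48 (adjusted p = 0.000477). Of 24 antioxidant genes 2 rose and 1 fell, with the rises at 1 and the falls at 0 without HBEGF array 1 or serum array 2, and 2 falls without HBEGF array 3. Of 18 genes of phagocytosis 2 rose, Pros1 (1.75) and Mertk (1.29), and 2 fell; the falls numbered 0 without HBEGF array 1 or serum array 1 and 1 without HBEGF array 2 or serum array 2. Of 30 chemokines, cytokines and related genes 1 rose and 2 fell, with 0 to 3 rises by the array left out (0 without serum array 1, 2 without HBEGF array 3, 3 without serum array 3). The adhesion molecule Vcam1, at 10.00, 9.35 and 9.81 in serum and 12.26, 11.45 and 12.25 in HBEGF arrays (-2.27 ± 0.21, adjusted p = 2.85e-06), and the NF-kappa-B inhibitor Tnfaip3 (-1.35, adjusted p = 0.00172) were the falls. Of 27 interferon and antigen presentation genes 2 rose, 0 without HBEGF array 2 and 1 without serum array 1, and 0 fell (7 and 0 at an unadjusted p of limma under 0.05). Of 14 complement genes 0 changed (2 higher and 1 lower at an unadjusted p of limma under 0.05), with 1 higher without HBEGF array 3 and 1 lower without HBEGF array 2.

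Markers of other cells were read as summed intensities, in which the brightest genes weigh most, and some lists also by their mean log2. Microglia and macrophage markers (18 measured) summed to 1404, 1097 and 1898 in serum arrays 1 to 3 and to 1329, 1020 and 6604 in HBEGF arrays 1 to 3, and HBEGF array 3 stood out. The defining markers Csf1r, Cx3cr1 and P2ry12 lay under the median of all values in every array of both groups but Csf1r in HBEGF array 3 (7.57). None of the 18 was called (1 higher and 1 lower at an unadjusted p of limma under 0.05), and 1 fell without HBEGF array 2. Neuron markers (21) summed to 7551, 9535 and 5975 in serum and to 12514, 11435 and 20210 in HBEGF arrays. Oligodendrocyte progenitor markers (6) summed to 7533, 8414 and 14199 in serum and to 18515, 27468 and 12347 in HBEGF arrays. The neuron sum was lower in every serum array than in any HBEGF array. The progenitor sums overlapped through serum array 3 and HBEGF array 3. The mean log2 of each list read otherwise. For neuron markers it overlapped, at 6.90, 6.86 and 7.24 in serum and 7.34, 6.77 and 8.46 in HBEGF arrays. For progenitor markers it did not, at 8.16, 8.12 and 7.63 in serum and 9.35, 8.99 and 8.77 in HBEGF arrays. In serum array 3 Pdgfra, also in the fibroblast list, was at 13.73 and Olig1 at 8.50. Lhfpl3 was the only one of the 6 progenitor markers called, and a further 1 fell without HBEGF array 3 or serum array 1 or 2. Mural markers (14) summed to 29495, 29327 and 18917 in serum and to 17250, 6036 and 21670 in HBEGF arrays. The mural sums overlapped, with serum array 3 below HBEGF array 3, as did the values of Tagln, the brightest member. The mean log2 of the mural list did not overlap, at 7.83, 7.87 and 7.97 in serum and 7.08, 6.84 and 7.29 in HBEGF arrays. Of these markers 4 rose and 0 fell (6 and 1 at an unadjusted p of limma under 0.05); these 4 were Cnn1, Acta2, Des and Pdgfrb, the first 3 of them also in the SRF list, while the pericyte marker Rgs5 was at 5.52, 5.75 and 5.06 in serum and 4.85, 6.14 and 5.11 in HBEGF arrays. Astrocyte markers (28) summed to 265043, 260549 and 223972 in serum and to 299543, 242489 and 283521 in HBEGF arrays, and the sums overlapped. Their mean log2 did not, at 11.54, 11.53 and 11.35 in serum and 12.05, 11.60 and 11.89 in HBEGF arrays.

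Endothelial markers had 3 of 14 higher, Kdr (2.61), Esm1 (1.92) and Eng (1.55), and 0 lower (5 and 1 at an unadjusted p of limma under 0.05), with 1 lower without serum array 3. Their summed intensity was 3039, 4328 and 6010 in serum against 2570, 2126 and 1873 in HBEGF arrays, higher in every serum array. The defining markers Cldn5 and Pecam1 were near 5 or below in every array of both groups. Flt1, also a defining marker, was at 5.94, 5.85 and 6.23 in serum and 5.28, 5.48 and 5.48 in HBEGF arrays. It was higher in every serum array (0.59, adjusted p of limma = 0.0202, under the fold limit). Of 13 oligodendrocyte markers Bcas1 fell (-3.05) and Myrf rose (1.15, lost without HBEGF array 1 or 2 or serum array 3), with 2 falls without HBEGF array 1. Their sums overlapped, at 5224, 7042 and 21544 in serum and 14264, 14674 and 16438 in HBEGF arrays. Cldn11 was at 14.11 in serum array 3, its highest value. The mean log2 of the oligodendrocyte list did not overlap, at 6.50, 6.57 and 6.67 in serum and 6.83, 6.85 and 7.19 in HBEGF arrays. Of 9 ependymal and choroid markers the water channel Aqp1 rose (3.21) and 0 fell (1 and 1 at an unadjusted p of limma under 0.05), with 3 falls without HBEGF array 2. Their sums overlapped as well, at 2999, 3478 and 8429 in serum and 2713, 1330 and 7317 in HBEGF arrays. Of 7 Schwann cell markers 0 changed (0 higher and 1 lower at an unadjusted p of limma under 0.05), with 1 lower without HBEGF array 3. Their sums were 28330, 27976 and 18425 in serum and 24756, 25969 and 24297 in HBEGF arrays. The part of these cells in the gene changes above was not tested.

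**Figure D3:**
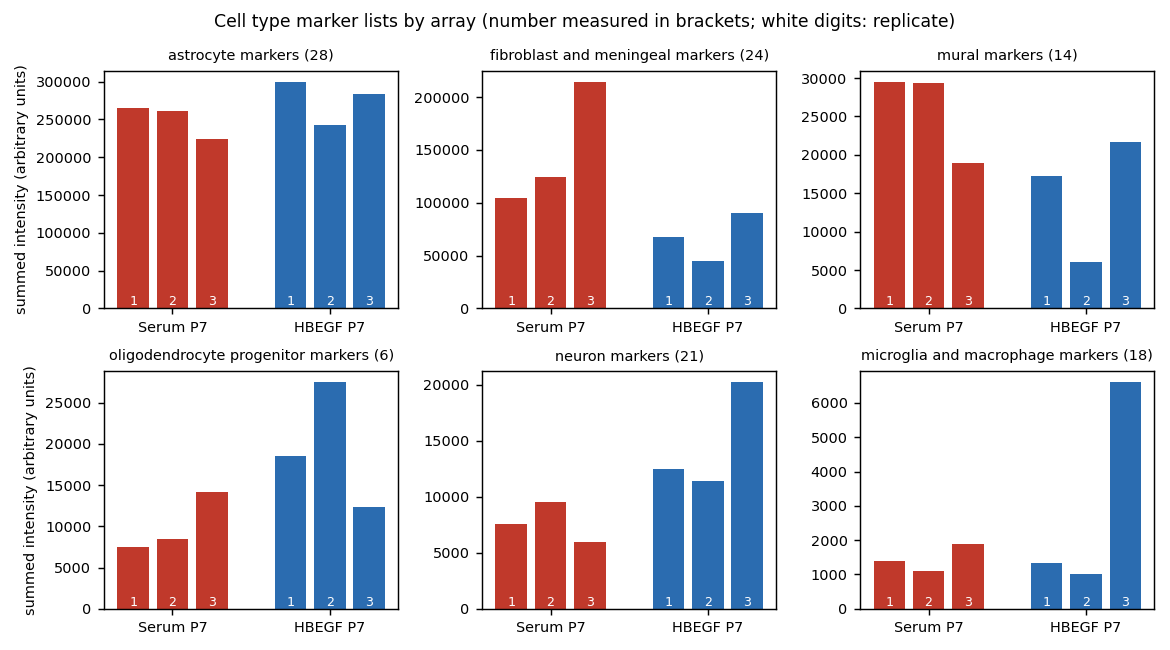
Summed intensity (arbitrary units, axes from 0) of 6 cell type marker lists in each array, serum P7 in red and HBEGF P7 in blue, with the replicate number at the foot of each bar and the number of markers in brackets. Serum array 3 has the highest fibroblast and meningeal sum (214285) and HBEGF array 3 the highest microglia sum (6604).

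The second pair of groups, MD against HBEGF P1 cultures, also sets cells grown in serum against HBEGF cultures and shares no array with the first. It differs from it in the age of the rats and in the way the MD cells were isolated. There 1253 genes were higher and 1360 lower in MD cultures (18.4% of genes). Of the 686 genes that rose in serum P7 cultures, 332 (48.4%) also rose in MD cultures, where they made up 26.5% of the rises, against a background of 8.81%. Of the 636 that fell, 398 (62.6%) also fell in MD cultures, 29.3% of the falls there, against 9.57%. A further 20 of the rises and 11 of the falls were called in the opposite direction. Across all genes the 2 sets of changes correlated at r = 0.53, over genes that are not independent of each other.

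Spon1 changed by -5.79 in serum P7 and by -5.51 in MD cultures, and Egfr by -2.51 and -3.39. Hspb1 rose by 5.18 in serum P7 and 5.68 in MD cultures, Sgk1 by 4.02 and 4.19, Thy1 by 4.50 and 4.14, and Fkbp5 by 2.95 and 3.24. For these 6 genes the difference between the 2 comparisons was not called. In the SRF list 17 of 24 genes rose in MD cultures.

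The difference itself was called for 1607 genes (11.3%), 713 more positive in the serum P7 comparison (5.02%) and 894 more negative (6.29%). Of the 686 genes that rose in serum P7 cultures, 163 were among those called in the difference, and of the 636 that fell, 71. The mitosis list and the DNA replication and G1/S list (21 of 25) had the highest shares of genes called in the difference among the 40 lists. All 26 mitosis genes were higher in MD cultures (median 2.08), and 24 of them were called in the difference. Mki67 changed by -0.52 in serum P7 and by 1.93 in MD cultures, a difference of -2.45 ± 0.51 (SE, adjusted p = 0.00405). Col1a1 rose by 2.47 in serum P7 but was -1.31 in MD cultures (difference 3.78 ± 0.56, adjusted p = 0.000413). Thrsp (4.69 in serum P7, -0.99 in MD, difference 5.67, adjusted p = 0.000245) and Tnn (7.29, 3.24, difference 4.05, adjusted p = 7.37e-05) had larger changes in the panned cells. Aldh1l1 was -2.35 in MD cultures and 0.43 in serum P7 cultures (difference 2.78, adjusted p = 0.000113). Of the 28 astrocyte markers 11 fell in MD cultures and 9 were called in the difference.

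**Figure D4:**
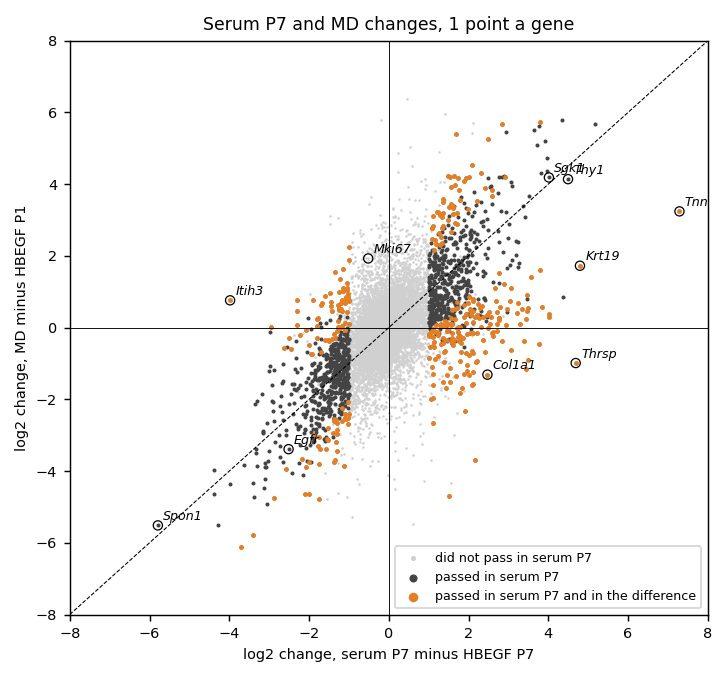
Log2 change of serum P7 minus HBEGF P7 cultures (x axis) against that of MD minus HBEGF P1 cultures (y axis), 1 point for each of 14217 genes, with genes that passed in serum P7 in dark grey and those also called in the difference in orange. The dashed line marks equal changes; Spon1, Sgk1 and Thy1 lie close to it, while Tnn, Thrsp, Col1a1 and Krt19 lie to its right.

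The remaining P7 groups show where the levels lay before and after the serum culture. These values are descriptions, since they are read against the same serum and HBEGF arrays. Among the 686 genes that rose, the fresh P7 mean lay nearer the HBEGF than the serum mean in 570 (83.1%), and among the 636 that fell in 494 (77.7%). In 421 of the 686 and 297 of the 636 it lay beyond the HBEGF mean, on the side away from serum. The withdrawn cultures lay nearer the serum mean in 495 of the 686 and in 474 of the 636. Spon1 averaged 6.26 in serum P7, 12.05 in HBEGF P7 and 6.80 in withdrawn cultures, and 12.12 in fresh P7 cells. Egfr averaged 9.66 in serum P7, 12.17 in HBEGF P7 and 10.02 in withdrawn cultures, and 12.11 in fresh P7 cells. For both genes the withdrawn mean lay nearest the serum mean, and the fresh mean nearest the HBEGF mean.

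Other genes had other orders. Microglia and macrophage markers summed to 19275, 7577 and 28912 in the withdrawn arrays, above all serum and HBEGF P7 arrays, and their part in the withdrawn levels was not tested. Actg2 was above the bottom of the scale in serum P7 cultures (8.55) and averaged 5.57 in HBEGF P7 cultures, 5.32 in withdrawn cultures, 5.38 in MD cultures and 4.80 in fresh P7 cells. Thy1 averaged 10.80 in serum P7 and 6.31 in HBEGF P7 cultures, with withdrawn cultures between (8.24). Vcam1 averaged 9.72 in serum P7, 11.99 in HBEGF P7 and 12.12 in withdrawn cultures, with the withdrawn mean nearest the HBEGF mean. Lcn2 was highest in the withdrawn cultures (13.74), against 9.35 in serum P7 and 7.47 in HBEGF P7 cultures. Dusp1 averaged 10.63 in serum P7 and 7.61 in HBEGF P7 cultures, and 13.34 in fresh P7 cells, nearer the serum level. Col1a1 averaged 12.92 in serum P7, 10.45 in HBEGF P7, 12.14 in withdrawn and 7.57 in MD cultures.

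**Figure D5:**
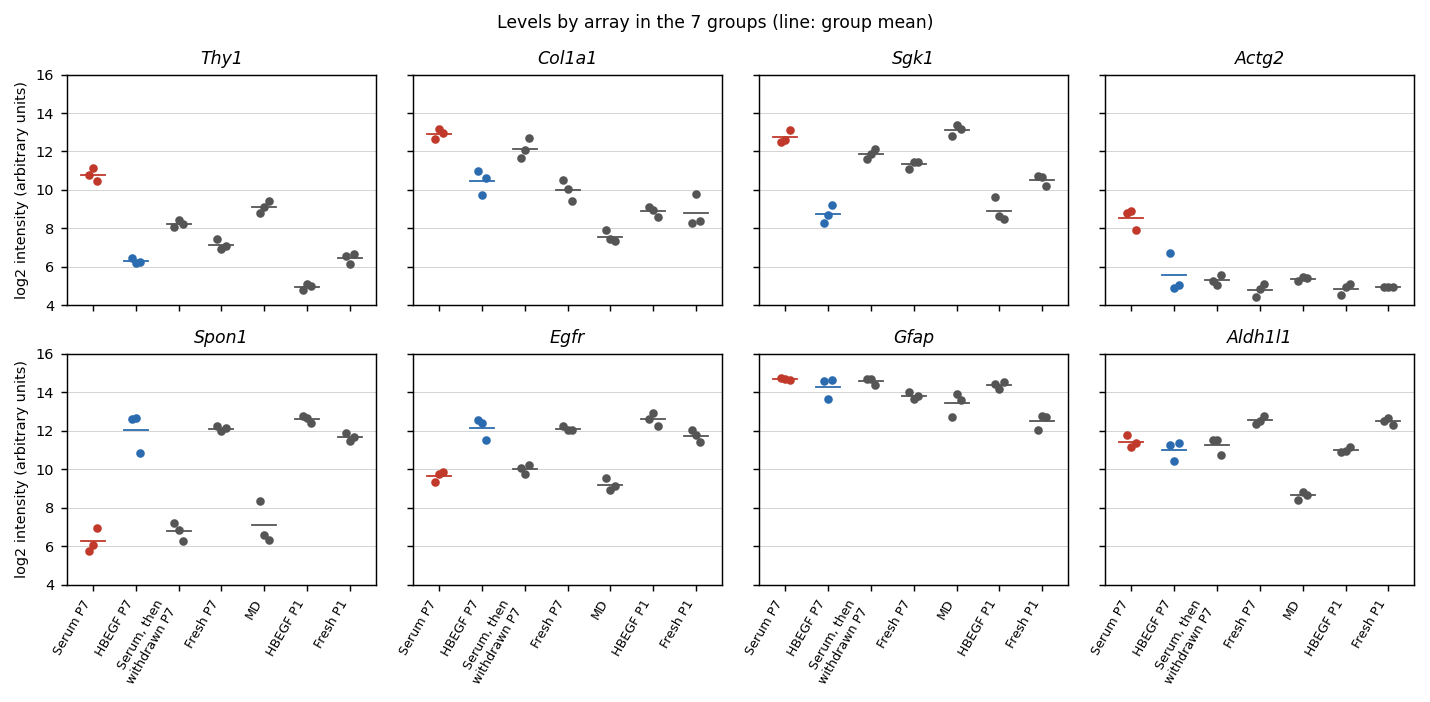
Log2 intensity (arbitrary units) of 8 genes in the 7 groups of the study, 1 point per array with a line at the group mean; serum P7 is red, HBEGF P7 blue and the other groups grey. Spon1 and Egfr are low in serum P7, withdrawn and MD cultures, Actg2 stands above the bottom of the scale in serum P7 cultures and 1 HBEGF array, and Gfap is above 12 in every group on average.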

How the data were processed

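RNA of 21 cultures and fresh isolates was measured on Affymetrix Rat Genome arrays. The authors deposited intensity values on a linear scale, for which the submitters' processing notes name RMA (10 to 37801). RMA corrects background, normalizes quantiles between arrays and sums up the probes of a probe set, and it compresses changes near its floor. Array medians ran from 128 to 146, and the number of arrays limits the precision. The log2 of these intensities was taken, with no offset. A model with 7 group means over all 21 arrays (14 residual degrees of freedom) was fitted with limma 3.58.1 in R 4.3.3, and p was adjusted by Benjamini-Hochberg over all 31042 probe sets. A call needed an adjusted p under 0.05 and a log2 change of at least 1.

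Of the probe sets, 20826 had 1 gene symbol, 436 several and 9780 none; 20758 were matched to RefSeq (GRCr8) symbols by gene number. The brightest single-symbol probe set stood for each of 14217 genes, of which 4525 had more than 1. The genes described are the 12 largest changes each way among calls whose arrays do not overlap, called members of the lists, and fixed markers. Ptgds, Igf2, Gjb2, Foxc1 and the gene families of the closing section were chosen after their values were seen. The groups, lists and tests were chosen with earlier results of these data known. No 2 of the 6 P7 culture arrays held the same values (highest Spearman correlation 0.994). Same-numbered MD and HBEGF P1 arrays deviated together (r = 0.48, 0.36 and 0.28), so a fit with the replicate number as a block was run, and it moved no count of calls by over 1.5 times. With 3 arrays against 3 an exact permutation test cannot go below p = 0.1, so single values rest on the limma fit. The model was checked on simulated data with independent noise of the same spread in all groups. That check does not cover groups of wider spread or arrays that stand apart. Contamination estimates by RT-PCR were not analysed here.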

Additional observations from a re-analysis of the deposited data

Results flagged for a closer look

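The values below are differences between the change of serum P7 over HBEGF P7 cultures and that of MD over HBEGF P1 cultures, on the log2 scale, for genes where limma called the difference itself. In all, 1607 genes were called. Several markers of fibroblasts and meninges were among the most positive, with Lum at 6.22, Pdgfra at 6.09, Col3a1 at 5.85, Dcn at 5.17 and Col1a1 at 3.78, and the scavenger receptor Colec12 was at 5.9. Lum, Pdgfra, Col3a1 and Dcn changed by 1.52, 0.60, 2.15 and 0.89 in serum P7 cultures and by -4.70, -5.49, -3.69 and -4.28 in MD cultures. Among the genes with large rises in serum P7 cultures the difference was 5.67 for Thrsp, 4.05 for Tnn, 3.72 for Inmt, 3.64 for Agtr1a and 3.07 for Krt19. Among those with large falls it was -4.74 for Itih3, which fell by 3.98 in serum P7 cultures and changed by 0.76 in MD cultures, and 2.41 for Miat and 2.38 for Smoc1, which fell further in MD cultures. The most negative differences were those of Mall (-5.98), the chemokine Cxcl1 (-5.92), the receptor Cd93 (-4.63), the protease Plau (-4.58) and the neurosecretory protein Vgf (-4.56), followed among the fixed markers by Hbegf (-3.44), Mki67 (-2.45) and Top2a (-1.79). Cxcl1 changed by 0.46 in serum P7 cultures and by 6.37 in MD cultures, and Hbegf by 0.47 and 3.91. The differences of the astrocyte markers were 2.78 for Aldh1l1, 1.69 for Aqp4 and 1.37 for Gfap. Aldh1l1 fell by 2.35 and Aqp4 by 1.41 in MD against HBEGF P1 cultures, while Gfap changed by -0.97 there, just under the fold limit. The MD and serum P7 comparisons differ in the age of the rats and in the isolation, which cannot be told apart here.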

How the results depend on the processing

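Fitted on the arrays of the groups compared alone, serum P7 against HBEGF P7 gave 400 rises and 362 falls in place of 686 and 636. The spread then came from these arrays only, with fewer degrees of freedom. The same kind of fit gave 1263 and 1411 for MD against HBEGF P1, in place of 1253 and 1360. The spread around group means was 0.29, 0.42 and 0.38 in HBEGF P7 arrays and 0.26, 0.19 and 0.39 in serum P7 arrays. In MD and HBEGF P1 arrays it ran from 0.17 to 0.26. The part of this spread in the lower counts was not tested. With no limit on the fold, 1591 rose and 2001 fell in serum P7 against HBEGF P7 cultures. The counts were then 3107 and 2900 in MD against HBEGF P1 cultures, and 1117 and 1489 in the difference of the 2 comparisons. With 1 array left out, serum P7 against HBEGF P7 gave 548 to 817 rises and 566 to 722 falls, MD against HBEGF P1 gave 1145 to 1339 and 1286 to 1365, and the difference 595 to 806 and 760 to 1020. Deviations of same-numbered serum P7 and HBEGF P7 arrays correlated at r = -0.06, 0.15 and 0.22, which does not settle whether they share a preparation. With the replicate number as a block 708 rose and 646 fell, 684 and 632 of them shared with the fit without it. The block gave 1260 and 1378 for MD and 784 and 942 for the difference. Quantile normalization (726 and 576), centring on array medians (746 and 566), a filter on low intensity (645 and 631), an offset of 32 (576 and 523), the mean of a gene's probe sets (652 and 512), a trended robust variance (687 and 637) and leaving out serum array 3 with HBEGF array 2 (558 and 642) kept the counts within 1.5 times. Pdgfra, at 0.60 with all arrays, was -1.23 (adjusted p = 0.0107) without serum array 3 and HBEGF array 2; the cause was not tested. Of 160 called genes with fixed rules of choice, 43 lost the call without some 1 array. Over genes and alternatives, 2915 values kept direction and side of the threshold, 228 lost the call and 13 gained it, and 186 of 1280 list counts moved by over 1.5 times. Intensities near the floor of the array limit what can be said of genes below a log2 of about 5.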

Other observations

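Gene families outside the lists were grouped by symbol after their values were seen. Of 28 Wnt ligands, receptors and antagonists 8 were higher and 0 lower in serum P7 cultures (median change 0.44, against 4.83% and 4.47% of all genes). Sfrp4, a secreted Wnt antagonist, was at 9.53, 10.23 and 8.07 in serum and 7.14, 7.27 and 7.99 in HBEGF arrays, and the antagonist Frzb at 7.77, 8.59 and 10.07 in serum and 7.74, 6.72 and 6.69 in HBEGF arrays. With the mean of its probe sets Sfrp4 changed by 0.92, under the fold limit. Frzb lost its call without HBEGF array 2 or 3 or serum array 3 (adjusted p = 0.0796, 0.0693 and 0.134). Of 10 annexins, which bind membranes in the presence of calcium, 3 were higher and 0 lower. Anxa3 was at 10.11, 10.77 and 10.95 in serum against 8.87, 6.89 and 8.64 in HBEGF arrays. The S100 proteins, small calcium sensors, moved both ways, with 3 of 16 higher and 3 lower. S100a6 was at 14.003, 14.17 and 13.65 in serum and 12.81, 11.91 and 12.02 in HBEGF arrays, while S100a1 was at 10.59, 10.48 and 10.32 in serum and 12.54, 10.88 and 11.998 in HBEGF arrays, with S100b and S100a16 also lower. S100a1 lost its call without HBEGF array 1 (-0.98, under the fold limit). All 3 S100 genes that were higher in serum P7 cultures were higher in MD cultures too, where S100a6 changed by 5.39. The higher gene S100a4 lost its call in serum P7 cultures without HBEGF array 1 or 2 or serum array 1 or 2 (adjusted p up to 0.223).

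In 3 further families most genes were not called and the calls went both ways. Of 57 axon guidance ligands and receptors 8 were lower and 2 higher (median 0.08). The ephrin receptor Ephb1 was at 7.16, 7.41 and 6.47 in serum against 10.59, 10.12 and 9.78 in HBEGF arrays, and the semaphorin and VEGF co-receptor Nrp1 was at 9.66, 10.28 and 10.64 in serum against 6.55, 6.09 and 7.62 in HBEGF arrays. Of 33 cadherins and protocadherins 7 were lower and 4 higher (median -0.10). Pcdh9 was at 7.58, 7.77 and 7.15 in serum and 10.34, 10.46 and 9.59 in HBEGF arrays, and Cdh1, the cadherin of epithelia, at 7.97, 8.45 and 9.52 in serum and 6.05, 4.79 and 6.78 in HBEGF arrays. Of 75 potassium channel subunits 5 were lower and 2 higher (median 0.07), close to the share of all genes. Kcna2, a delayed rectifier, was at 6.66, 6.66 and 6.26 in serum and 10.33, 9.96 and 8.69 in HBEGF arrays. Kcnd3, an A-type channel, was at 5.32, 5.38 and 6.64 in serum and 8.22, 8.03 and 8.47 in HBEGF arrays. Nrp1, Pcdh9 and Kcnd3 were not called in MD against HBEGF P1 cultures (0.24, -0.56 and -0.60), whereas Ephb1 (-2.91) and Kcna2 (-4.47) fell there as well.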
